A study of Homo sapiens with 8 samples.

Results

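Endothelial junction genes are described here in HMEC-1, an immortalised line of human microvascular endothelial cells that carries a viral large T antigen. The genes are CDH5, PECAM1, PCDH12, ESAM, JAM3, F11R, TJP1, CTNNB1, CTNND1 and CDH2, taken by name, and all 10 were found among the 16153 genes of the deposited expression matrix. The 3 groups were compared by sequencing of total RNA after removal of ribosomal RNA. The space_microg group (3 libraries) was cultured weightless in an incubator of the Columbus module of the International Space Station. The space_1g group (2 libraries) was cultured in the same incubator inside a centrifuge that restored 1 g. The ground group (3 libraries) was kept at 1 g in a matching facility in the home laboratory, after its units had been returned there on a commercial flight. All groups grew on gelatin-coated polymer coverslips in medium with serum, hydrocortisone and EGF inside automated culture units and were fixed with an RNA preservative. The flight units were fixed in orbit and then returned to Earth. Nothing in the labels says whether libraries of a group came from separate cultures, so the p-values measure the spread between these libraries, which may be technical. All libraries come from 1 cell line.

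Endothelial cells line blood vessels and seal them through junctions at their lateral borders. In adherens junctions, cadherins of neighbouring cells bind each other and hold the actin cytoskeleton through catenins. VE-cadherin (CDH5) is the endothelial cadherin of these junctions. N-cadherin (CDH2) is also made by endothelial cells, where it largely sits outside the junction and can bind pericytes and smooth muscle cells. In tight junctions, transmembrane proteins of the immunoglobulin superfamily such as the JAMs and ESAM attach to scaffold proteins such as ZO-1 (TJP1). PECAM1 lies at the same borders, where it takes part in the passage of leukocytes and in sensing of flow.

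Promoter sequences are shown for 3 genes that the values below turn on, PCDH12 with the widest range between libraries, CTNNB1 with a narrow one, and CDH2. CDH2 was the member whose differences from ground were above 0 in both flight groups, although its libraries overlapped and it did not pass the test. RefSeq promoter windows (GRCh38.p14, reaching from upstream of a transcript start to just past it) were matched for 4 of the 10 genes, including several starts for TJP1 and CDH2. The capitals mark GGAA, the core recognised by ETS factors such as ERG and FLI1, which act widely in endothelial genes, or its reverse complement TTCC. The PCDH12 window is chr5:141958153-141958452 on the minus strand, the CTNNB1 window chr3:41199255-41199554 on the plus strand and the CDH2 window chr18:28177081-28177380 on the minus strand.
PCDH12: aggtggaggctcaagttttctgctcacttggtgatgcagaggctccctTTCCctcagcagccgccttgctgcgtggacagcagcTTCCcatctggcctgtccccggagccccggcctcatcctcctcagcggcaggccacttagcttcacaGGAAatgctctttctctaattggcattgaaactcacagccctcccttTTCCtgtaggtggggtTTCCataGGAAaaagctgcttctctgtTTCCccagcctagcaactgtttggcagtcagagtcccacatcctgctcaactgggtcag
CTNNB1: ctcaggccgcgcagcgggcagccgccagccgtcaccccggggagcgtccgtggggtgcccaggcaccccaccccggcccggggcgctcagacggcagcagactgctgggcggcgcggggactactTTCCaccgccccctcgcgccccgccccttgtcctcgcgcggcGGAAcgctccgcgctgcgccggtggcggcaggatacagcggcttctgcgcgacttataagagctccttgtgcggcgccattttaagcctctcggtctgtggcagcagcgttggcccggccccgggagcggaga
CDH2: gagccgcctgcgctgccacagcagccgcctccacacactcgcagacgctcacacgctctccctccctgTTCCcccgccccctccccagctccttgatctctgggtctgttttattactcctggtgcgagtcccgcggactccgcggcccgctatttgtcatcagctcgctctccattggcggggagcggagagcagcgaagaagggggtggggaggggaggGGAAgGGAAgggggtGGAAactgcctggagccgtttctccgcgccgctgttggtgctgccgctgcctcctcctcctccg
The PCDH12 window held 7 matches to GGAA on either strand, the CTNNB1 window 2 and the CDH2 window 4. Over all 35116 RefSeq windows of this length the median was 3, and 95.5% held at least 1. As many matches as in PCDH12, or more, occurred in 8.29% of windows, against 83.8% for the count of CTNNB1 and 46.0% for that of CDH2. These matches are letters in a window and were not measured as binding.

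Levels are given in CPM, read counts relative to library size, which the authors scaled with a factor per library (scaled CPM). The 8 libraries held 24248964 to 35388757 reads in the listed genes. Member counts per library lay between 96 reads for PCDH12 in space_1g replicate 2 and 22393 for CTNNB1, and a count of 96 has an exact Poisson 95% interval of 77.8 to 117, which covers counting error only. Across all genes, space_1g replicate 1 and ground replicate 3 (the 2 outlying libraries) stood apart from the other 6 libraries. They scored -60.7 and -64.7 on the first principal component, which held 61.9% of the variance, where the other 6 lay between -1.51 and 31.1. Many differences moved when these or other single libraries were left out, and values without them are given beside some of the differences from ground. Among endothelial markers, 12 of 12 were measured, and their summed level was 904 to 1341 scaled CPM in space_microg, 982 to 1207 in space_1g and 1447 to 1514 on the ground. TIE1 (213 to 482 scaled CPM) and TEK (159 to 309) were present in every library, and CLDN5 was low throughout (0.26 to 9.93). For other cell types, CLDN7 was measured as 1 of 6 epithelial markers (2.76 to 10.0 scaled CPM), CD14 as 1 of 4 leukocyte markers (1.04 to 2.88) and 2 of 4 lymphatic markers (summed 66.1 to 137). The 3 of 7 fibroblast and smooth muscle markers summed to 37.6 to 47.0 scaled CPM in space_microg, 31.3 to 46.8 in space_1g and 36.6 to 46.8 on the ground.

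Order of abundance among the members was read per kilobase of exon (union of GENCODE v29 exons), as mean ± SD over 8 libraries. The order depends on these lengths, since a union of exons can be longer than the transcripts present. Before division CTNNB1 had a mean of 636 scaled CPM (union of 11.9 kb) and CDH5 388 (6.08 kb). The order of these 2 genes therefore reverses without the lengths. CDH5 was highest at 63.8 ± 16.6 scaled CPM per kb, followed by β-catenin (CTNNB1) at 53.3 ± 5.57, p120-catenin (CTNND1) at 43.3 ± 4.31 and PECAM1 at 34.3 ± 8.33. CDH5 exceeded CTNNB1 in 7 of 8 libraries and their ranges overlapped, as did those of CTNNB1 and CTNND1 and of CTNND1 and PECAM1, although the order of these last pairs held in 8 of 8 libraries. TJP1 lay at 17.5 ± 1.68, below PECAM1 and above the next gene with no overlap of ranges. JAM-A (F11R) at 8.95 ± 2.63 and CDH2 at 6.88 ± 2.28 followed, with F11R above CDH2 in 6 of 8 libraries. The level of F11R per kb is less certain, since 36.6% of its exon bases are shared with another annotated gene on the same strand. The least abundant were ESAM at 2.18 ± 0.48, PCDH12 at 1.55 ± 1.43 and JAM-C (JAM3) at 1.503 ± 0.298 scaled CPM per kb, and PCDH12 exceeded JAM3 in 3 of 8 libraries, so that this order is not resolved.

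**Figure D1:**
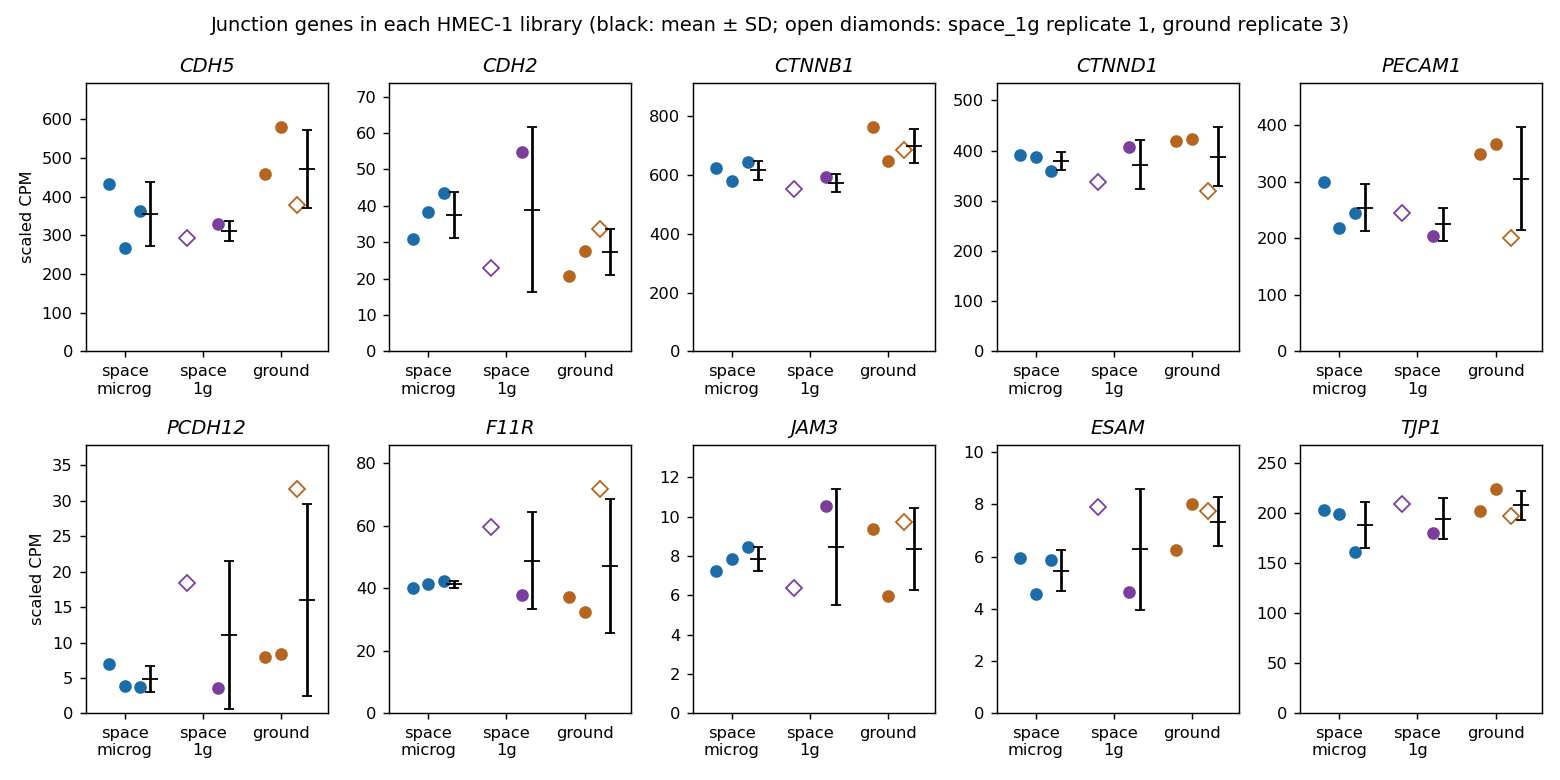
Scaled CPM (vertical axis, from 0) of each junction gene in every library, by group; filled circles are single libraries, open diamonds are space_1g replicate 1 and ground replicate 3, and black bars give the mean ± SD of each group. All 5 flight libraries lie below all 3 ground libraries for CTNNB1, whereas PCDH12 and F11R are highest in the diamonds.

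The cadherins CDH5 and CDH2 differed from the ground in opposite directions, without either passing the test. CDH5 (chromosome 16, 66366622 to 66404786, plus strand) had 434, 268 and 364 scaled CPM in space_microg replicates 1 to 3, 293 and 329 in space_1g replicates 1 and 2, and 459, 579 and 378 in ground replicates 1 to 3. Of the 5 flight libraries, 4 lay below the lowest ground library, the exception being space_microg replicate 1. The means were 355 ± 83.4 in space_microg (SD, n = 3), 311 ± 25.9 in space_1g (n = 2) and 472 ± 101 on the ground (n = 3). On the log2(CPM + 1) scale, limma gave a difference from ground of -0.42 ± 0.22 (SE) for space_microg (adjusted p = 0.866) and -0.58 ± 0.25 for space_1g (adjusted p = 1.00), and the space_1g libraries did not overlap the ground libraries. With space_microg replicate 2 left out the space_microg value was -0.23, with ground replicate 2 left out it was -0.26, and it was -0.56 without the 2 outlying libraries. For the average of both flight groups the difference was -0.50 ± 0.20, with a 95% interval of -0.96 to -0.038 (limma, unadjusted p = 0.037, adjusted p = 1.00). The endothelial marker sum was also lower in all flight libraries than in all ground libraries, and its part in the level of CDH5 was not tested. Of its 12 genes, 11 were below 0 for the average of both flight groups and 1, EMCN, was above. The sum hides differing patterns. In ground replicate 3 TIE1 (482 scaled CPM) and TEK (309) were at their highest of all libraries, and ERG (52.4) and ROBO4 (61.4) at their lowest. In a bulk library, fewer cells of a type and less RNA per cell cannot be told apart.

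CDH2 (chromosome 18, 27950966 to 28177446, minus strand) had 31.0, 38.2 and 43.4 scaled CPM in space_microg, 23.0 and 54.9 in space_1g, and 20.8, 27.5 and 33.6 on the ground. Space_1g thus held both its highest library and, in replicate 1, a level inside the ground range, and 3 of 5 flight libraries lay above the highest ground library. The differences from ground were 0.46 ± 0.32 for space_microg and 0.40 ± 0.36 for space_1g (limma, adjusted p = 0.866 and 1.00). The space_microg value was 0.28 without ground replicate 1, and that of space_1g was 1.01 and -0.21 with space_1g replicates 1 and 2 left out in turn, and 0.22 with ground replicate 1 left out. Without space_1g replicate 1 and ground replicate 3 the difference of both flight groups from ground was 0.89 ± 0.19 in place of 0.43 ± 0.29, and the 4 flight libraries left (31.0 to 54.9) lay above the 2 ground libraries (20.8 and 27.5). This larger value also missed the threshold (limma, unadjusted p = 0.00107, adjusted p = 0.301).

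Taken per kilobase within each library, CDH2 made up 8.07%, 14.9% and 12.8% of the sum of CDH5 and CDH2 in space_microg replicates 1 to 3, 8.79% and 17.0% in space_1g replicates 1 and 2, and 5.27%, 5.51% and 9.84% in ground replicates 1 to 3. These shares do not depend on library scaling. Their means were 11.9% ± 3.50 in space_microg (SD, n = 3), 12.9% ± 5.81 in space_1g (n = 2) and 6.87% ± 2.57 on the ground (n = 3), and flight and ground overlapped only through ground replicate 3, which lay above space_microg replicate 1 and space_1g replicate 1. CDH5 remained the more abundant cadherin in every library, by 4.88-fold in space_1g replicate 2 at the least and 18.0-fold in ground replicate 1 at the most.

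**Figure D2:**
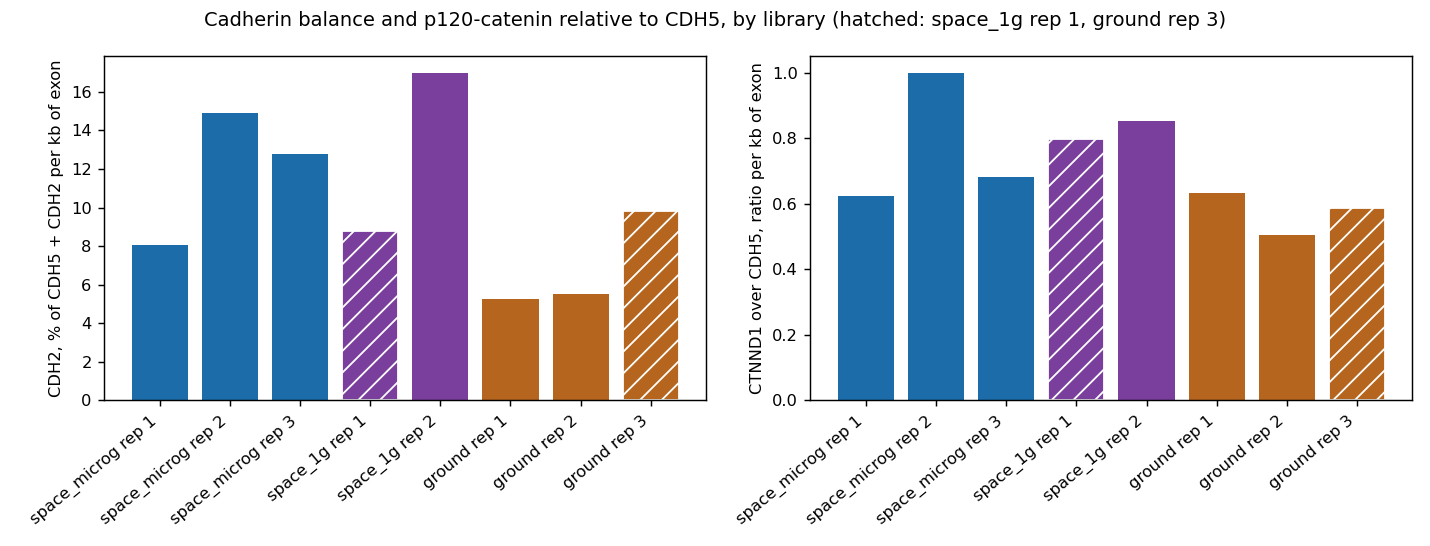
Left, CDH2 as a percentage of CDH5 plus CDH2 per kilobase of exon; right, CTNND1 over CDH5 per kilobase, both from 0 and with 1 bar per library, hatched for space_1g replicate 1 and ground replicate 3. CDH2 shares run from 8.07% to 17.0% in flight and from 5.27% to 9.84% on the ground.

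Catenins bind the cadherin tails, and of these CTNNB1 was the member whose flight and ground libraries did not overlap at all. β-catenin links cadherins to α-catenin and also serves as the transcriptional effector of Wnt signalling. CTNNB1 (chromosome 3, 41194741 to 41260096, plus strand) had 622, 579 and 645 scaled CPM in space_microg, 552 and 593 in space_1g, and 762, 649 and 686 on the ground. Every flight library was below every ground library, although space_microg replicate 3 and ground replicate 2 were close (645 and 649). Group means were 615 ± 33.4 in space_microg (SD, n = 3), 573 ± 29.4 in space_1g (n = 2) and 699 ± 57.5 on the ground (n = 3). The log2 differences from ground were small, -0.18 ± 0.15 for space_microg, -0.28 ± 0.16 for space_1g and -0.23 ± 0.13 for both flight groups (limma, adjusted p = 0.866, 1.00 and 1.00). Leaving out each library in turn kept the last value between -0.29 (without ground replicate 2) and -0.17 (without ground replicate 1), and the space_microg value was -0.12 without ground replicate 1. Complete separation of flight from ground in the lower direction was found in 2.23% of all genes tested.

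CTNND1, whose product p120-catenin binds cadherins near the membrane and slows their uptake, lies on chromosome 11 from 57753243 to 57819546 on the plus strand. It had 392, 387 and 359 scaled CPM in space_microg, 338 and 406 in space_1g, and 420, 424 and 321 on the ground. The groups overlapped, and CTNND1 had the narrowest range of all members, 1.32-fold between its lowest and highest library. Its differences from ground were -0.022 ± 0.16 for space_microg and -0.054 ± 0.18 for space_1g, with 95% intervals of -0.39 to 0.35 and -0.47 to 0.36. Both values turned sign with single libraries left out, ranging from -0.15 to 0.048 and from -0.19 to 0.078. Relative to CDH5, per kilobase, CTNND1 stood at 0.62, 1.00 and 0.68 in space_microg, 0.80 and 0.85 in space_1g, and 0.63, 0.51 and 0.59 on the ground. Only space_microg replicate 1 of the 5 flight libraries fell within the ground range of this ratio. CTNNB1 over CDH5 overlapped between groups, at 0.73 to 1.10 in space_microg, 0.92 to 0.96 in space_1g and 0.57 to 0.93 on the ground.

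PECAM1 and PCDH12 are adhesion molecules of the lateral border outside the classical junction complexes. PECAM1 (chromosome 17, 64319415 to 64413776, minus strand) had 300, 219 and 245 scaled CPM in space_microg, 246 and 205 in space_1g, and 349, 367 and 201 on the ground. Ground replicate 3 was the lowest of all 8 libraries, while ground replicates 1 and 2 were the highest. The difference from ground was -0.23 ± 0.25 for space_microg and -0.40 ± 0.28 for space_1g (limma, adjusted p = 0.883 and 1.00). Single libraries moved the space_microg value in both directions, to -0.11, -0.071 and -0.50 with ground replicates 1, 2 and 3 left out in turn, and to -0.35 and -0.12 with space_microg replicates 1 and 2 left out in turn. The space_1g value was -0.24 without ground replicate 2 and -0.67 without ground replicate 3. Without space_1g replicate 1 and ground replicate 3, both flight groups together differed by -0.65 ± 0.16 (limma, unadjusted p = 0.00233, adjusted p = 0.301).

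Protocadherin 12 (PCDH12; chromosome 5, 141943585 to 141969741, minus strand), a homophilic adhesion molecule of endothelial cells, had 7.01, 3.91 and 3.72 scaled CPM in space_microg, 18.4 and 3.62 in space_1g, and 8.01, 8.33 and 31.6 on the ground. The highest levels were those of ground replicate 3 and space_1g replicate 1, and the other 6 libraries lay between 3.62 and 8.33. PCDH12 ranged 8.72-fold between libraries, wider than 94.3% of genes with reads in all libraries, for which the median was 2.03-fold. All space_microg libraries were below all ground libraries, with a log2 difference of -1.29 ± 0.63 (limma, adjusted p = 0.866) that was -0.68 without ground replicate 3. Against ground, space_1g differed by -0.56 ± 0.71, and single libraries moved this value widely, to -1.60 when space_1g replicate 1 was left out, to 0.47 when space_1g replicate 2 was left out, to 0.048 when ground replicate 3 was left out, and to -0.88 and -0.85 when ground replicates 1 and 2 were left out. Leaving out space_1g replicate 1 and ground replicate 3 together gave -0.99. Of its exon bases, 1.58% overlap RNF14 on the opposite strand.

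Immunoglobulin-type proteins of the tight junction and their scaffold also had no member past the threshold. F11R (chromosome 1, 160995211 to 161021348, minus strand), which encodes JAM-A, had 40.2, 41.3 and 42.3 scaled CPM in space_microg, 59.8 and 37.9 in space_1g, and 37.1, 32.6 and 71.7 on the ground. As for PCDH12, the highest levels were those of ground replicate 3 and space_1g replicate 1, with the other 6 between 32.6 and 42.3. The 3 space_microg libraries differed little among themselves (41.3 ± 1.04, SD, n = 3) beside 47.1 ± 21.4 on the ground (n = 3), and the difference was -0.10 ± 0.30, with values of -0.23, -0.32 and 0.24 when ground replicates 1, 2 and 3 were left out. For space_1g it was 0.10 ± 0.33 and lay between -0.22 and 0.44 with each library left out. Another gene annotated as protein-coding, AL591806.3, shares 36.6% of the exon bases of F11R on the same strand. It is not among the genes of the deposited matrix. Reads in the shared bases may therefore be missing from the F11R count, which was not tested.

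JAM3 (chromosome 11, 134068925 to 134152001, plus strand) had 7.26, 7.85 and 8.45 scaled CPM in space_microg, 6.37 and 10.5 in space_1g, and 9.39, 5.98 and 9.72 on the ground. Its highest library, space_1g replicate 2, and its lowest, ground replicate 2, differed 1.76-fold, and the groups overlapped. The differences from ground were -0.056 ± 0.26 for space_microg and 0.0044 ± 0.29 for space_1g, with 95% intervals of -0.65 to 0.53 and -0.65 to 0.66. With each library left out these values ran from -0.26 to 0.054 and from -0.32 to 0.33, and without the 2 outlying libraries they were 0.054 and 0.44. Since 8.53% of its exon bases overlap NCAPD3 on the other strand and no source used here gives the strand setting of the counting, part of these reads could belong to that gene.

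ESAM, an endothelial relative of the JAMs (chromosome 11, 124752583 to 124762290, minus strand), had 5.95, 4.55 and 5.87 scaled CPM in space_microg, 7.90 and 4.64 in space_1g, and 6.26, 8.01 and 7.75 on the ground. The space_microg libraries were all below the ground libraries, and those of space_1g lay within and below the ground range. Limma gave -0.37 ± 0.24 for space_microg against ground (adjusted p = 0.866) and -0.23 ± 0.27 for space_1g (adjusted p = 1.00), and the space_1g value was -0.56 and 0.10 with space_1g replicates 1 and 2 left out in turn, and -0.52 without the 2 outlying libraries.

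TJP1 (chromosome 15, 29699367 to 29968865, minus strand), the scaffold ZO-1 that ties tight junctions to actin, had 204, 200 and 162 scaled CPM in space_microg, 209 and 180 in space_1g, and 203, 224 and 197 on the ground. Groups overlapped, with space_microg replicate 3 and space_1g replicate 2 below all ground libraries. The differences were -0.15 ± 0.15 for space_microg and -0.096 ± 0.17 for space_1g, with 95% intervals of -0.49 to 0.19 and -0.47 to 0.28. With space_microg replicate 3 left out the space_microg value was -0.042, and with ground replicate 2 left out it was -0.093. That of space_1g was -0.20 and 0.011 with space_1g replicates 1 and 2 left out in turn, -0.042 with ground replicate 2 left out and -0.24 without the 2 outlying libraries.

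Space_microg was set against ground to compare weightless flight with culture on Earth. In limma 0 of 10 members passed at an adjusted p of 0.05, as did 0.0% of the 16103 genes tested, and 0 had an unadjusted p under 0.05 (4.32% of all genes). EdgeR and DESeq2 on the recovered reads called 0 members as well, each with PCDH12 at an unadjusted p under 0.05. Of all genes, 4.602% had one in edgeR and 5.41% in DESeq2. The limma difference of PCDH12 was -1.29, or -0.68 without ground replicate 3. Of the members, 9 of 10 had a difference below 0, against 53.0% of all genes, and their median was -0.16 against -0.022 over all genes. PCDH12, ESAM and CTNNB1 did not overlap between the groups, all with lower levels in space_microg, where 14.4% of all genes did not overlap and 6.53% did so in that direction.

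Flight at 1 g was set against ground to separate other conditions of flight from weightlessness. Limma called 0 of 10 members (0.0% of all genes) and gave CDH5 alone an unadjusted p under 0.05 (0.047, 1.55% of all genes under 0.05). EdgeR called 0 with 0 unadjusted (1.41% of all genes) and DESeq2 0 with CDH5 unadjusted (2.03%). A difference below 0 was found in 7 of 10 members (48.8% of all genes), with a median of -0.16 against 0.0061 over all genes. CDH5 and CTNNB1 did not overlap between the groups (10.7% of all genes did not, 5.73% with lower levels in space_1g). With 2 libraries in space_1g, single libraries turned the sign of 7 members.

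**Figure D3:**
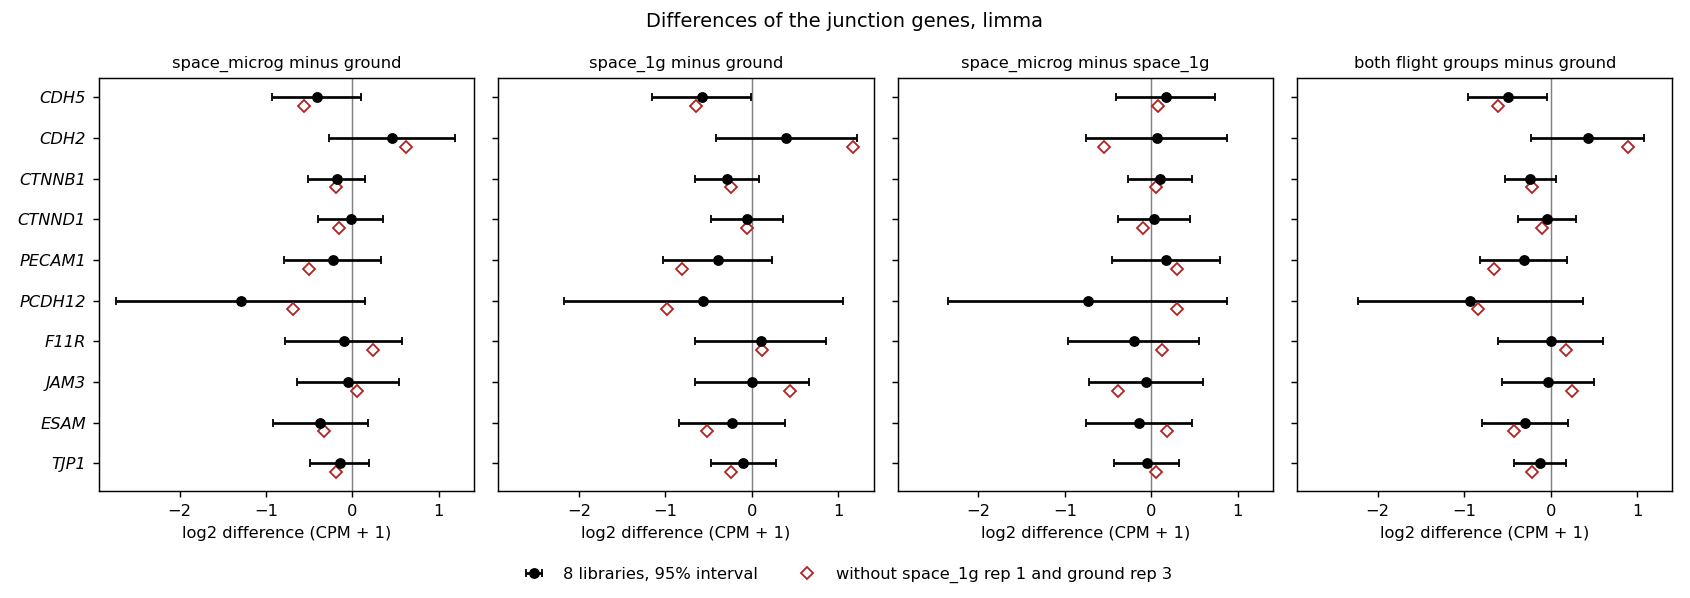
Log2 differences of the members in 4 comparisons (horizontal axis, log2 of scaled CPM + 1); black points with bars are limma estimates from 8 libraries with 95% intervals, and red diamonds are estimates without space_1g replicate 1 and ground replicate 3. The intervals include 0 except for CDH5 in space_1g minus ground and in both flight groups minus ground.

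Space_microg was set against space_1g to compare weightlessness with 1 g within flight. No member passed in limma (0 of 10, 0.0% of all genes, 0 with an unadjusted p under 0.05 where 1.32% of all genes had one), nor in edgeR or DESeq2, each with 0 members unadjusted. CDH5 had 355 ± 83.4 scaled CPM in space_microg and 311 ± 25.9 in space_1g, a difference of 0.17 ± 0.25 with a 95% interval of -0.41 to 0.74. It was 0.0082 and 0.36 with space_microg replicates 1 and 2 left out in turn, and 0.081 and 0.25 with space_1g replicates 1 and 2 left out in turn. For CTNNB1 the difference was 0.10 ± 0.16 (-0.27 to 0.47), or 0.051 and 0.16 with space_1g replicates 1 and 2 left out in turn. PECAM1 differed by 0.17 ± 0.28 and ran from 0.040 (without space_1g replicate 2) to 0.30 (without space_1g replicate 1). TJP1 differed by -0.051 ± 0.17 (-0.43 to 0.33), and 7 members, TJP1 among them, turned sign with a single library left out. In 10 of 10 members the libraries of the groups overlapped, where 14.2% of all genes did not overlap. A difference below 0 was found in 5 of 10 members (53.4% of all genes). The widest intervals were those of PCDH12 (-2.35 to 0.88), CDH2 (-0.75 to 0.88) and F11R (-0.96 to 0.55). Since space_microg and space_1g are compared with the same ground libraries, their differences from ground are not independent of each other.

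Averaged over both flight groups, CDH5 was again the member with an unadjusted p under 0.05 in limma, edgeR and DESeq2 (1 of 10 in each). Of all genes, 2.86% had one in limma, 2.88% in edgeR and 3.70% in DESeq2. After adjustment 0 of 10 passed in each tool (0.0% of all genes in limma). CTNNB1 was the member with no overlap between flight and ground, where 3.8% of all genes did not overlap. A difference below 0 was found in 8 of 10 members (50.9% of all genes). Without space_1g replicate 1 and ground replicate 3, which leaves 4 flight and 2 ground libraries with the single space_1g library assumed to vary like the others, CDH5 differed by -0.61 ± 0.21, PECAM1 by -0.65 ± 0.16, PCDH12 by -0.84 ± 0.27 and CDH2 by 0.89 ± 0.19. These 4 of 10 members then had an unadjusted p under 0.05, against 11.1% of all genes, and 0 of 10 passed after adjustment. The same 4 members had one in space_microg against ground (12.6% of all genes) and in space_1g against ground (5.22%), and CDH2 alone in space_microg against space_1g (0.919%). Groups then did not overlap for 8 of 10 members in flight against ground (28.7% of all genes) and for 8 of 10 in space_microg against ground (33.2%), shares that fewer libraries raise for all genes. CTNNB1 differed by -0.22 ± 0.15, ESAM by -0.43 ± 0.23, TJP1 by -0.21 ± 0.15 and CTNND1 by -0.10 ± 0.13 in that fit.

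Members varied in different ways over the libraries. The likeness of patterns was taken as the root mean square (RMS) difference of log2(CPM + 1) over the 8 libraries after centring each gene on its own mean. CDH5 and PECAM1 were the members closest to each other relative to their own spread, with an RMS difference of 0.20 beside spreads of 0.34 and 0.32 around their means. CTNNB1, CTNND1 and TJP1 had spreads of 0.13 to 0.14 and lay 0.17 to 0.19 from each other, which is wider than those spreads. CDH2 was 0.64 from CDH5 and 0.68 from PECAM1, and PCDH12 lay at least 0.71 from every other member. Among 11394 genes with a mean of at least 5 scaled CPM, the 3 closest to CDH5 were the atypical cadherin DCHS1 (0.135), the lipid enzyme LPCAT1 (0.142) and the Wnt and Norrin receptor FZD4 (0.147). Closest to PECAM1 were ARAP3, a regulator of small GTPases (0.082), RFX2, a transcription factor (0.082), and NYNRIN (0.118). For CDH2 they were the Rab11 adaptor RAB11FIP1 (0.146), the ion exchanger SLC9A7 (0.147) and the matrix protein MATN3 (0.165). These values describe 8 libraries, of which 2 stand apart, and were not tested.

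**Figure D4:**
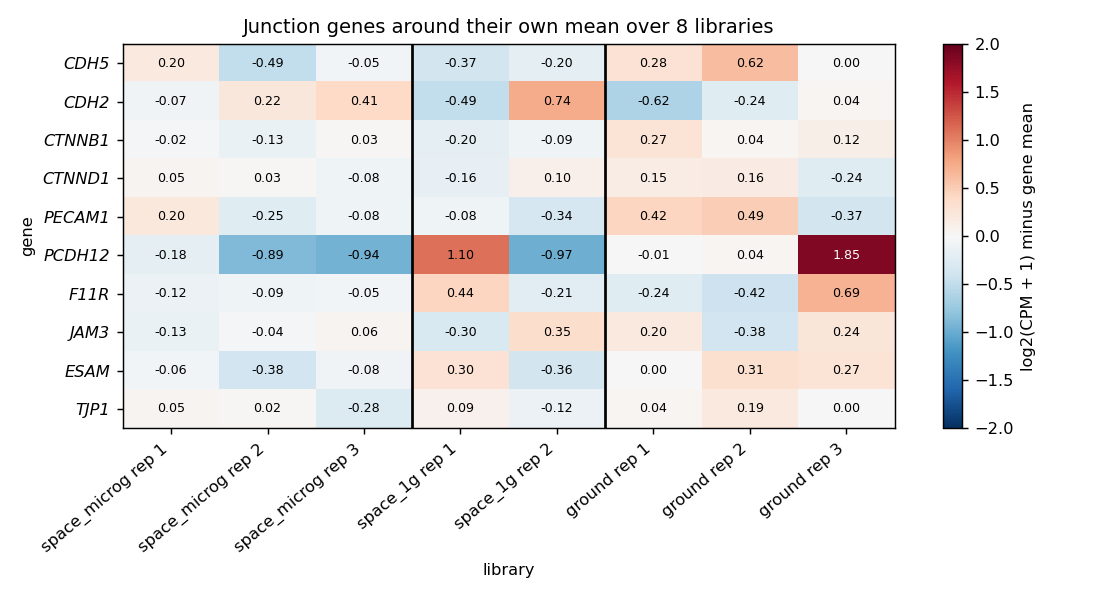
Log2(CPM + 1) of each member minus its own mean over 8 libraries (colour and printed value), with libraries in columns and black lines between groups. CDH5 and PECAM1 are above their means in ground replicates 1 and 2, and PCDH12 reaches 1.10 in space_1g replicate 1 and 1.85 in ground replicate 3.

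Other junction genes were taken from lists of structural components and regulators, without the 10 members. Of 78 measured genes, limma called 0 in each comparison, with 4 at an unadjusted p under 0.05 in space_microg against ground (4.32% of all genes), 2 in space_1g against ground (1.55%), 1 in space_microg against space_1g (1.32%) and 5 in both flight groups against ground (2.86%). EdgeR also called 0, with 5 unadjusted (4.602% of all genes), 2 (1.41%), 1 (1.37%) and 5 (2.88%) in the same order of comparisons. DESeq2 called 0, with 6 (5.41%), 2 (2.03%), 1 (2.11%) and 7 (3.70%). Without the 2 outlying libraries limma called 0, with 14 (12.6%), 13 (5.22%), 0 (0.919%) and 15 (11.1%). Of 17 adherens junction genes, 0 were called in either direction against ground, and 12 were below 0 in space_microg (median -0.15) and 14 in space_1g (median -0.11). Without the 2 outlying libraries the medians were -0.095 and -0.11. SSX2IP, which anchors at adherens junctions and centrosomes, had 13.7 ± 2.76 scaled CPM in space_microg, 12.4 ± 6.20 in space_1g and 7.98 ± 0.82 on the ground, and differed from ground by 0.70 ± 0.28 in space_microg (limma, adjusted p = 0.866). The α-catenin relative CTNNAL1 differed by 0.31 ± 0.15 in the same comparison, while NECTIN3 differed by 0.51 ± 0.28 between space_microg and space_1g, or 0.15 without the 2 outlying libraries.

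The 21 other tight junction genes had 0 calls in either direction, and 14 of them were above 0 in space_microg (median 0.15) and 13 in space_1g (median 0.083). CXADR, the coxsackievirus receptor and an adhesion molecule of tight junctions, had 4.53 ± 1.35 scaled CPM in space_microg, 3.83 ± 2.48 in space_1g and 1.81 ± 0.96 on the ground. Its log2 differences from ground were 1.00 ± 0.37 for space_microg and 0.73 ± 0.41 for space_1g. The tricellular junction protein MARVELD2 differed from ground by 0.34 ± 0.22 and 0.49 ± 0.25, CLDN11 by 0.49 ± 0.30 and -0.16 ± 0.33 and the paracingulin gene CGNL1 by -0.50 ± 0.32 and -0.56 ± 0.35, in space_microg and space_1g in that order. Without the 2 outlying libraries, CLDN11 differed by 0.37 and 0.16, CGNL1 by -0.87 and -0.79, MARVELD2 by 0.49 and 0.78 and CXADR by 0.82 and 1.10, and the list medians were 0.20 and 0.23. Among 4 gap junction genes, with 0 called, GJA1 (connexin 43) had 114 ± 23.0 scaled CPM in space_microg, 89.6 ± 4.02 in space_1g and 118 ± 13.8 on the ground. GJB2 had 1.09 ± 0.31, 2.19 ± 0.95 and 0.67 ± 0.64 in the same order of groups, GJC1 differed from ground by 0.035 ± 0.17 in space_microg and -0.090 ± 0.19 in space_1g, and PANX1 by -0.011 ± 0.30 and 0.15 ± 0.33. Without the 2 outlying libraries, GJC1 differed by -0.13 and -0.23 and PANX1 by 0.33 and 0.22.

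Of 8 other lateral adhesion genes, with 0 called, 5 were below 0 in space_microg (median -0.28) and 8 in space_1g (median -0.24). ICAM2, a leukocyte ligand at endothelial borders, had 49.8 ± 9.57 scaled CPM in space_microg, 52.9 ± 19.0 in space_1g and 72.7 ± 18.2 on the ground. CD47 differed from ground by 0.24 ± 0.20 in space_microg and -0.17 ± 0.22 in space_1g, CD99L2 by 0.064 ± 0.17 and -0.25 ± 0.19, and protocadherin 1 (PCDH1) by -0.68 ± 0.48 and -0.24 ± 0.54. Without the 2 outlying libraries, PCDH1 differed by -0.22 and -0.54, CD47 by 0.14 and 0.041 and CD99L2 by 0.067 and 0.012, and the list medians were -0.20 and -0.33.

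The 28 regulators had 0 calls in either direction and medians of -0.24 in space_microg, with 17 below 0, and -0.044 in space_1g, with 15 below 0. Without the 2 outlying libraries the medians were -0.095 and -0.12. TEK, the angiopoietin receptor that stabilises junctions, had 188 ± 35.5 scaled CPM in space_microg, 201 ± 48.3 in space_1g and 289 ± 25.0 on the ground, and all 5 flight libraries (159 to 235) were below all 3 ground libraries (261 to 309). Both TEK and its co-receptor TIE1 also belong to the endothelial marker list. TIE1 had 280.4 ± 59.4, 302 ± 39.2 and 388 ± 81.6 in the same order of groups, also without overlap between flight and ground. Such separation in the lower direction was found in 2.23% of all genes tested, and both genes were named for their small unadjusted p. In space_microg against ground TEK differed by -0.63 ± 0.19 and TIE1 by -0.47 ± 0.22 (limma, adjusted p = 0.866 for each). Without the 2 outlying libraries these differences were -0.58 and -0.30. PDCD10, a component of the cerebral cavernous malformation complex, had 52.6 ± 6.67 scaled CPM in space_microg, 43.9 ± 9.51 in space_1g and 33.7 ± 4.38 on the ground. Space_microg differed from ground by 0.63 ± 0.18 (limma, adjusted p = 0.866). CDC42, a small GTPase of junction assembly, differed by 0.43 ± 0.17 between space_microg and space_1g (limma, adjusted p = 0.912). The 12 endothelial markers, with 0 called in limma, had medians of -0.47 in space_microg and -0.41 in space_1g, with 10 and 11 below 0, and -0.42 and -0.61 without the 2 outlying libraries.

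**Figure D5:**
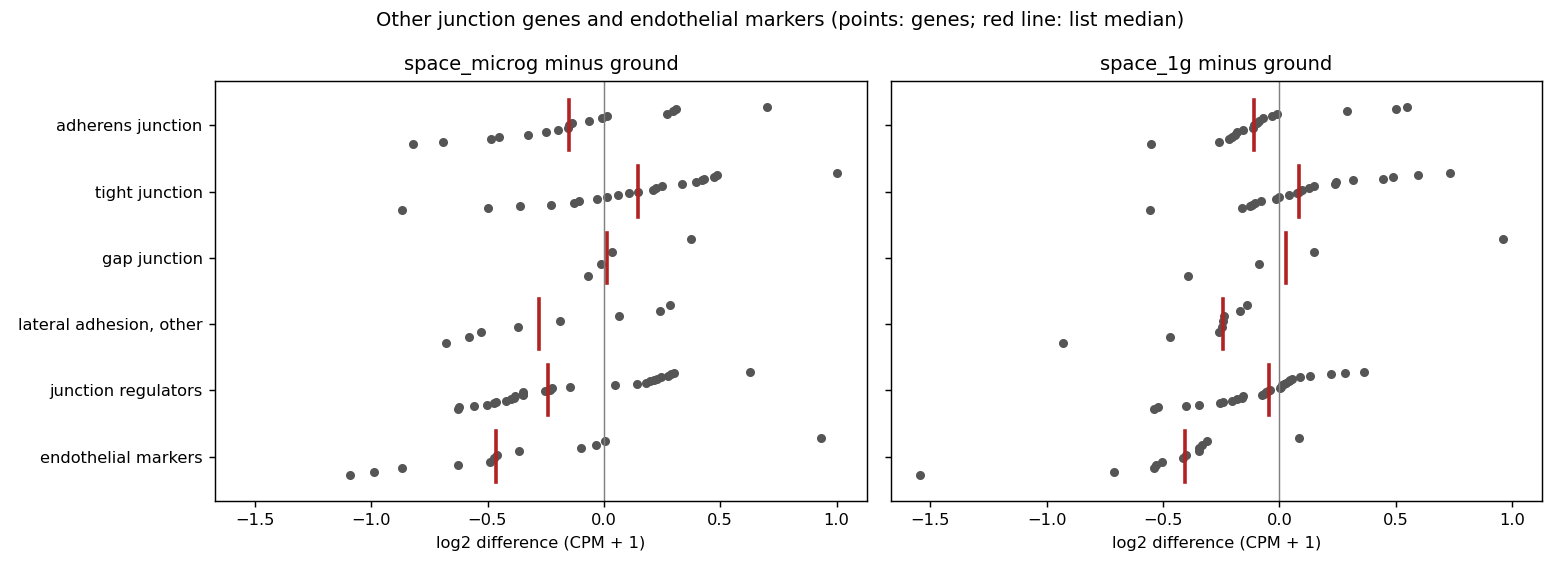
Log2 differences from ground (horizontal axis, log2 of scaled CPM + 1) of other junction genes by list, and of the endothelial markers, in space_microg (left) and space_1g (right); points are genes and red lines are list medians. Medians of the tight junction genes are above 0 (0.15 and 0.083), and those of the endothelial markers are below 0 (-0.47 and -0.41).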

How the data were processed

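Per the labels, RNA-seq libraries were made with a stranded total RNA kit after ribosomal RNA depletion. The authors deposited CPM per gene scaled with a factor per library, a normalised signal; the submitters' processing notes name STAR 2.5.3, CASAVA 1.8.2, featureCounts, FastQC, edgeR and the builds GRCh38 and hg38, without roles. Dividing by the worth of 1 read gave whole reads for 100% of values (tolerance 1e-06 read), so reads were recovered; the strand setting is not stated in those sources. Columns sum to 966156 to 1061177, not to a common total. The table was planned as CPM and its scaled values were tested the same way.

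Values were analysed as log2(CPM + 1), which understates differences of low genes. Requiring 1 CPM or more in 2 or more libraries kept 16103 genes, all members included. The test was limma 3.58.1 in R 4.3.3 with a mean trend, two-sided, with 8 libraries in 1 fit, no covariates and Benjamini-Hochberg adjustment over all genes at 0.05. EdgeR 4.0.16 (quasi-likelihood) and DESeq2 1.42.0 were run on the recovered reads. Other alternatives were the pseudocount, filter, scaling, trend, a fit of only the groups compared, a replicate block, and libraries left out. The limma step was tested on simulated data. The changes planted there were larger than any main difference of a member, and no outlying libraries were simulated. That test therefore does not show how differences as small as those of the members fare. Members and lists were chosen with earlier results of these data known. All members are named; of each other list, the 4 genes with the smallest unadjusted p over all comparisons are named, except 1 that is not reported here, and others only as stated. Likeness was fixed for CDH5, PECAM1 and CDH2. Gene positions are from GENCODE v29 (GRCh38). Symbols not matched in the table are not analysed here.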

Additional observations from a re-analysis of the deposited data

How the results depend on the processing

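The counts of genes called by limma were 0 in each comparison and stayed between 0 and 0 with each library left out. DESeq2 called 3 genes in space_microg against ground (RBM3, ADCY4 and FBLN5, named after their values were seen) and 8 in both flight groups against ground, with no member among them. Of 790 member values under alternatives, 732 kept their direction and their side of the threshold, 58 turned sign and 0 passed the threshold. Part of the 790 could not turn sign, because the setting leaves the compared group means unchanged. This holds for the filter, the trend, a fit of only the groups compared, and a library left out of a group not compared. The share that kept its direction therefore overstates how stable the differences are. The cause of the turns was not tested. All that follow are log2 differences. Without both space_1g replicate 1 and ground replicate 3, space_microg minus ground was 0.054 for JAM3 and 0.24 for F11R, both flight groups minus ground was 0.25 for JAM3, and space_microg minus space_1g was 0.30 for PCDH12, 0.19 for ESAM, 0.12 for F11R, 0.057 for TJP1, -0.10 for CTNND1 and -0.55 for CDH2. EdgeR turned CTNND1 in space_microg minus ground (0.0030), CDH2 in space_microg minus space_1g (-0.032) and F11R in both flight groups minus ground (-0.043). DESeq2 turned the same CDH2 value (-0.050) and F11R value (-0.077). Median-of-ratios scaling turned JAM3 in space_1g minus ground (-0.0016) and F11R in both flight groups minus ground (-0.0052), and a pseudocount of 4 turned that F11R value (-0.0032).

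With each library left out, space_microg minus ground ranged from -0.26 to 0.054 for JAM3, from -0.32 to 0.24 for F11R and from -0.15 to 0.048 for CTNND1. Space_1g minus ground ranged from -1.60 to 0.47 for PCDH12, -0.56 to 0.10 for ESAM, -0.32 to 0.33 for JAM3, -0.22 to 0.44 for F11R, -0.20 to 0.011 for TJP1, -0.19 to 0.078 for CTNND1 and -0.21 to 1.01 for CDH2. Space_microg minus space_1g ranged from -1.77 to 0.30 for PCDH12, -0.47 to 0.19 for ESAM, -0.38 to 0.26 for JAM3, -0.52 to 0.12 for F11R, -0.16 to 0.057 for TJP1, -0.10 to 0.16 for CTNND1 and -0.55 to 0.67 for CDH2. Both flight groups minus ground ranged from -0.22 to 0.14 for JAM3, -0.22 to 0.34 for F11R and -0.17 to 0.031 for CTNND1. Leaving out a space_1g library leaves 1, whose spread is taken from the other groups.

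With the replicate number as a block (replicate block), limma called 0 genes, and those with an unadjusted p under 0.05 numbered 1013, 759, 850 and 874 in space_microg against ground, space_1g against ground, space_microg against space_1g and both flight groups against ground, beside 696, 249, 212 and 460 without it. The block turned TJP1 (0.021) and CDH2 (-0.072) in space_microg minus space_1g and JAM3 (0.014) in both flight groups minus ground. Nothing in the labels says whether libraries with the same number were paired. Between libraries of the same number, correlations of deviations from group means lay between -0.68 and 0.68, and not every library correlated best with its own number. The 2 space_1g libraries deviate from their mean by mirrored amounts, so their correlations with any other library have opposite signs. These correlations therefore cannot settle whether the numbers mark a pairing. PCDH12, ESAM and JAM3, with 96 reads or more per library, carry the widest counting error of the members.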

Other observations

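The genes closest to PCDH12 and F11R in pattern were looked at after their values were seen. Over 8 libraries, the genes nearest to PCDH12 by the same RMS measure were UNC5B, a netrin receptor of endothelial cells (0.24), and PODXL, a sialomucin of the luminal surface (0.25), beside a spread of PCDH12 itself of 0.95. PODXL had 397, 161 and 168 scaled CPM in space_microg replicates 1 to 3, 714 and 174 in space_1g replicates 1 and 2, and 308, 283 and 866 in ground replicates 1 to 3. PODXL was thus highest in ground replicate 3 and space_1g replicate 1 and next highest in space_microg replicate 1.

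Nearest to F11R was PANX1, a channel protein related to gap junction proteins in invertebrates, at an RMS difference of 0.062 beside a spread of F11R of 0.35. PANX1 had 22.1, 21.9 and 25.0 scaled CPM in space_microg, 31.1 and 21.2 in space_1g, and 19.4, 16.7 and 37.8 on the ground. CLDN5, the main claudin of endothelial tight junctions in many vessels, had 2.05, 0.26 and 3.25 scaled CPM in space_microg, 8.03 and 1.66 in space_1g, and 2.99, 1.27 and 9.93 on the ground, again highest in ground replicate 3 and space_1g replicate 1.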
